A study of Sus scrofa with 18 samples.

Results

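The 6 genes described here, EGF, KCNJ1, FXYD2, PTGER3, HSD11B2 and SCNN1A, have known roles in the loop of Henle, the distal tubule or the collecting duct, the later segments of the nephron. They were taken by symbol from the array's annotation, where each has 1 probe set, out of 6765 genes named by a probe set with a single symbol and 23999 probe sets tested. Messenger RNA of whole pig kidney was measured on 18 Affymetrix arrays, in a series about injury after ischemia and reperfusion of transplanted kidneys and about carbon monoxide (CO). Kidneys transplanted with CO treatment were sampled at 4 h (donors 1 to 4) and at 24 h (donors 5 to 8). Kidneys transplanted without treatment came from the same donors at the same times, so that each group had 4 arrays and each donor gave 1 kidney to either treatment. The 2 naive kidneys were neither treated nor transplanted. For CO arrays the labels give air as treatment, whereas their source and title name CO and were followed, and who received the CO is not stated. Breed, sex and age of the pigs, and whether naive kidneys came from separate animals, are not given in the sources used here.

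Filtrate that leaves the proximal tubule passes through the thick ascending limb of the loop of Henle, which takes up salt without water, and then through the distal convoluted tubule and the collecting duct, where aldosterone and vasopressin set the final composition of urine. Uptake in all of these segments is driven by the sodium pump, Na,K-ATPase. The roles given below are known mainly from human and rodent kidney. EGF is a growth factor made in the thick ascending limb and distal convoluted tubule. KCNJ1, also called ROMK, returns potassium to the lumen in the thick ascending limb and secretes it in the collecting duct. FXYD2 is the gamma subunit of the sodium pump, and it is also present in the proximal tubule. PTGER3 is the receptor EP3 for prostaglandin E2, which opposes vasopressin. HSD11B2 inactivates cortisol in aldosterone-responsive cells, and SCNN1A is the alpha subunit of the epithelial sodium channel, ENaC.

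Levels are log2 values that the authors normalised between arrays. All values of the 6 genes lay between 2.87 and 10.72, above the background of 1.61 taken from tag control probe sets. Levels of different probe sets are not compared, and in whole kidney, fewer cells of a type and less RNA per cell cannot be told apart. One array stood apart, that of donor 1 untreated at 4 h: its correlation averaged 0.982 with naive arrays, against 0.956 with its own group. Batches are those given in the names of the array files. Naive 1 and the CO and untreated kidneys of donors 1, 3 and 4 form batch 1, and naive 2, the pair of donor 2 and untreated donor 5 form batch 2. All remaining 24 h kidneys form batch 3, except that of donor 6 with CO, which is alone in batch 4. CO 24 h kidneys therefore shared no batch with CO 4 h or naive kidneys. A fit with batch as a fixed block ended every call reported below for the 6 genes, and its values stand beside them. In that fit only the untreated 24 h kidney of donor 5 links 24 h kidneys to naive or 4 h kidneys. Over the whole array the fit left 0 calls in CO 24 h kidneys against naive kidneys and 0 between the times in either treatment. In untreated 24 h kidneys against naive kidneys it left 159. Lost calls were thus not particular to the 6 genes, and batch and time were hardly told apart. With batch as a random block, whose estimated correlation was -0.0059, no call among the 6 genes changed. A correlation so near 0 makes this fit almost the same as that without a block, so the unchanged calls add little. It was estimated with group means removed, so it does not cover batch differences between groups.

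At 24 h, 4 of the 6 genes were lower than in naive kidneys, namely EGF, FXYD2, HSD11B2 and SCNN1A, both in CO and in untreated kidneys. Over the whole array, 11.7% of probe sets passed the test in CO 24 h kidneys against naive kidneys, 5.75% higher and 5.93% lower, where the median change was -1.16 on the log2 scale for the 6 genes and -0.02 for all probe sets. In untreated 24 h kidneys against naive kidneys, 14.6% passed, 6.79% higher and 7.77% lower, with a median change of -1.25 for the 6 genes and 0.01 for all. Both comparisons use the same naive kidneys. The 6 genes were chosen with earlier results of these data known, which limits what their contrast with all probe sets can show. At 4 h, 0 of the 6 passed in limma in either group, and 2 of the 6, KCNJ1 and HSD11B2, had an unadjusted p under 0.05 in each, which 28.4% of all probe sets had in CO 4 h kidneys and 20.7% in untreated 4 h kidneys. The whole-array shares that passed were 13.6% for CO 4 h kidneys against naive kidneys, 6.84% higher and 6.72% lower, and 1.5% for untreated 4 h kidneys against naive kidneys, 0.942% higher and 0.563% lower. The gap between these shares depended on single arrays. In untreated 4 h kidneys 361 probe sets passed with all arrays and 3347 without the untreated kidney of donor 1. Leaving out single arrays gave 2 to 3347 in untreated and 1 to 4146 in CO 4 h kidneys. Between CO and untreated 4 h kidneys 0.0% of probe sets passed. The plot of changes from naive kidneys shows these results with their intervals. A gene passed when its adjusted p, from limma with Benjamini-Hochberg adjustment over all 23999 probe sets, was under 0.05. Errors after ± are standard errors of log2 changes unless SD is stated.

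**Figure D1:**
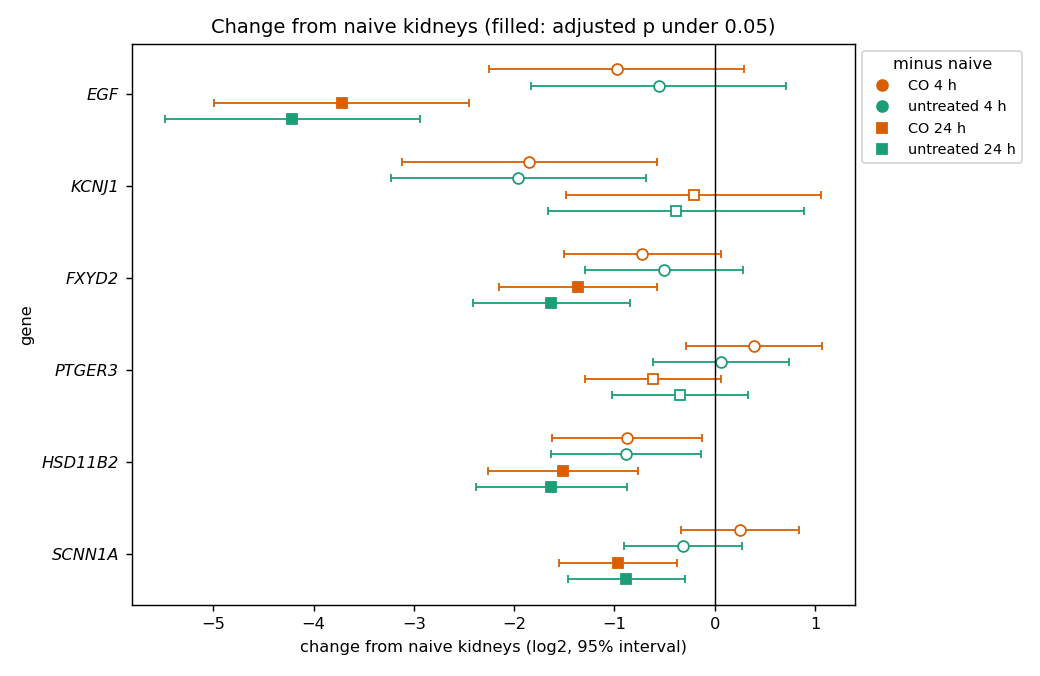
Log2 change from naive kidneys for each of the 6 genes (rows), with 95% intervals from limma, for CO and untreated kidneys at 4 h (circles) and 24 h (squares); filled symbols passed at an adjusted p under 0.05. EGF lies farthest to the left at 24 h, at -3.72 in CO and -4.22 in untreated kidneys, while KCNJ1 lies farthest to the left at 4 h, at -1.85 and -1.96.

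Between the times, 4 of the 6 genes passed in CO 24 h kidneys against CO 4 h kidneys. EGF, PTGER3 and SCNN1A were lower and KCNJ1 was higher, where 17.6% of all probe sets passed, 7.44% lower and 10.2% higher. In untreated 24 h kidneys against untreated 4 h kidneys, EGF and FXYD2 were lower, which is 2 of the 6, where 9.72% of probe sets passed, 5.15% higher and 4.57% lower. The kidneys of the 2 times came from different donors. The median change of the 6 genes was -0.82 in CO kidneys and -0.66 in untreated kidneys, against -0.04 and 0.02 for all probe sets.

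**Figure D2:**
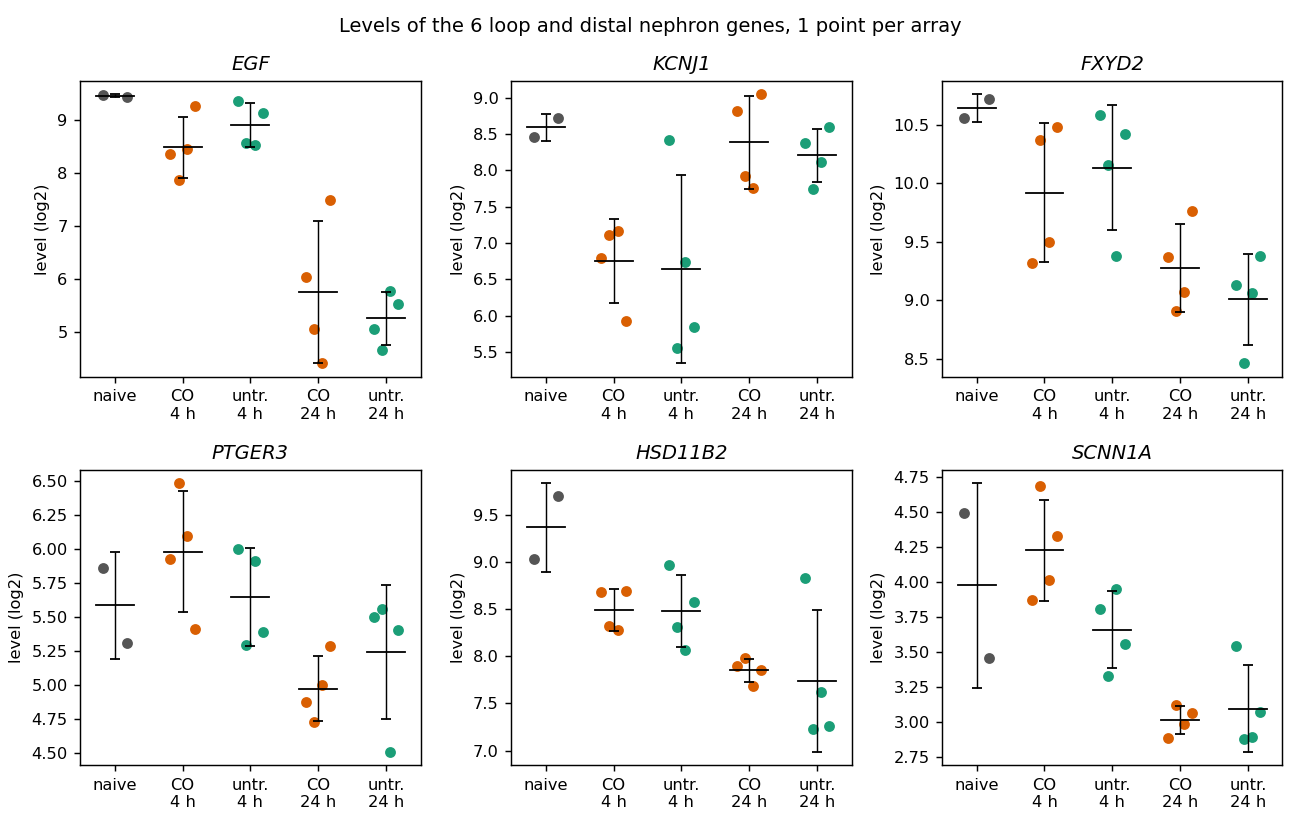
Log2 level of each gene on each of the 18 arrays (points), with the mean (horizontal line) and SD (error bar) per group; orange is CO, green untreated and grey naive, and each panel has its own scale. EGF and KCNJ1 run opposite ways with time: at 24 h EGF reaches 7.50 at most, below every 4 h value, while KCNJ1 is at 7.75 or above, a level that 1 of the 8 kidneys exceeds at 4 h.

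EGF, the growth factor, had the largest change of the 6 genes against naive kidneys. Its levels were 6.04, 5.04, 4.41 and 7.50 in CO 24 h kidneys of donors 5 to 8 and 5.06, 4.65, 5.76 and 5.53 in untreated 24 h kidneys, against 9.48 and 9.45 in naive kidneys. Neither 24 h group overlapped the naive kidneys. Relative to naive kidneys, EGF fell by 3.72 ± 0.60 in CO 24 h kidneys (adjusted p = 0.00174) and fell by 4.22 ± 0.60 in untreated 24 h kidneys (adjusted p = 0.000481). On a linear scale, EGF was 13.2-fold lower in CO 24 h kidneys and 18.6-fold lower in untreated 24 h kidneys than in naive kidneys. Among all 23999 probe sets, EGF had the 14th largest fall in both comparisons.

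EGF was lower at 24 h than at 4 h in both treatments. At 4 h its levels were 8.37, 7.87, 8.46 and 9.27 in CO kidneys of donors 1 to 4 and 9.37, 8.57, 8.54 and 9.14 in untreated kidneys. All of these were below both naive values, yet neither difference from naive kidneys passed, at -0.98 ± 0.60 for CO (adjusted p = 0.317) and -0.56 ± 0.60 for untreated kidneys (adjusted p = 0.668). The 95% intervals were -2.25 to 0.30 for CO and -1.83 to 0.71 for untreated kidneys. A fall of over 1 by 4 h thus lay within the precision in either group. In CO kidneys EGF was lower at 24 h than at 4 h by a change of -2.74 ± 0.49 (adjusted p = 0.00167), and in untreated kidneys by a change of -3.66 ± 0.49 (adjusted p = 0.000411). All 8 kidneys at 24 h were below all 8 at 4 h. The calls held when any 1 array was left out. Within batch 2, the untreated 24 h kidney of donor 5 differed by -4.39 from naive 2 and by -3.52 from the untreated 4 h kidney of donor 2, with 1 kidney on each side and no test. With batch as a fixed block the changes of EGF were -3.50 (adjusted p = 0.318) in CO 24 h and -4.16 (adjusted p = 0.0555) in untreated 24 h kidneys against naive kidneys. The block gave -2.40 (adjusted p = 0.518) between the times in CO kidneys and -3.48 (adjusted p = 0.226) in untreated kidneys.

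KCNJ1, the potassium channel, had a different course. Its levels were 6.79, 7.12, 7.17 and 5.92 in CO 4 h kidneys of donors 1 to 4 and 8.42, 5.55, 6.74 and 5.84 in untreated 4 h kidneys, against 8.47 and 8.73 in naive kidneys. All 8 kidneys at 4 h were below both naive kidneys, and the untreated kidney of donor 1, the array that stood apart, was only slightly so. The change was -1.85 ± 0.60 in CO 4 h kidneys (adjusted p = 0.0514) and -1.96 ± 0.60 in untreated 4 h kidneys (adjusted p = 0.0856), neither of which passed. Within batch 1 the difference from naive 1 was -1.84 for CO (3 kidneys against 1) and -1.47 for untreated kidneys (3 against 1). Within batch 2, with 1 kidney on each side, the difference from naive 2 was -1.61 for CO and -3.18 for untreated kidneys. Without the untreated kidney of donor 1, both comparisons passed, with a change of -1.85 in CO (adjusted p = 0.00705) and -2.56 in untreated 4 h kidneys (adjusted p = 0.00142). Leaving out the untreated 4 h kidney of donor 2 or of donor 4 likewise moved the CO comparison past the threshold, at an adjusted p of 0.0385 and 0.0484. With all arrays kept, the CO comparison passed with donor as a random block (adjusted p = 0.0496), a variance trend (0.0485), a filter on dim probe sets (0.0441), median centring (0.0451), array weights (0.00811) or only the compared groups in the fit (0.0208). The untreated comparison passed with array weights (-2.19, adjusted p = 0.00427).

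At 24 h, KCNJ1 had levels of 8.82, 7.92, 7.76 and 9.05 in CO kidneys of donors 5 to 8 and 8.38, 7.75, 8.11 and 8.60 in untreated kidneys. Both ranges overlapped the naive levels. The difference from naive kidneys was -0.21 in CO (95% interval -1.48 to 1.06, adjusted p = 0.874) and -0.39 in untreated kidneys (95% interval -1.66 to 0.89, adjusted p = 0.748), so that a change of over 1 in either group lay within the precision. Relative to 4 h, KCNJ1 rose in CO kidneys by 1.64 ± 0.49 (adjusted p = 0.0300), with 3.11 times the 4 h level and no overlap. In untreated kidneys the difference was 1.57 ± 0.49 (adjusted p = 0.0530), and the value of donor 1 at 4 h lay within the 24 h range. With all arrays kept, the untreated comparison passed with a variance trend (adjusted p = 0.0489), a filter on dim probe sets (0.0456), quantile normalisation (0.0445) or array weights (0.00796). Without the donor 1 array the difference was 2.17 and passed (adjusted p = 0.00174), and without the CO 4 h kidney of donor 4 it was 1.57 and passed (adjusted p = 0.0464). The call in CO kidneys was lost without the CO kidney of donor 1 (adjusted p = 0.0636), donor 4 (0.0940), donor 5 (0.0812) or donor 8 (0.0785). Batch as a block gave a change of 2.24 in CO kidneys (adjusted p = 0.575). Within batch 2, the untreated 24 h kidney of donor 5 was 2.83 above the untreated 4 h kidney of donor 2.

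FXYD2, the pump subunit, was lower at 24 h. Its levels were 9.37, 8.91, 9.07 and 9.76 in CO 24 h kidneys of donors 5 to 8 and 9.13, 8.46, 9.06 and 9.38 in untreated 24 h kidneys, against 10.56 and 10.72 in naive kidneys. No 24 h kidney reached a naive level. Relative to naive kidneys, FXYD2 fell by 1.36 ± 0.37 in CO 24 h kidneys (adjusted p = 0.0255) and fell by 1.63 ± 0.37 in untreated 24 h kidneys (adjusted p = 0.00814). At 4 h its levels were 9.32, 10.37, 9.50 and 10.49 in CO kidneys of donors 1 to 4 and 10.58, 10.16, 9.38 and 10.42 in untreated kidneys. These reached from the 24 h range to the naive range, and the untreated kidney of donor 1 lay between the naive values. With array weights the change in CO 4 h kidneys against naive kidneys, -0.96, passed (adjusted p = 0.0314). From 4 h to 24 h the change was -0.64 ± 0.30 in CO kidneys (adjusted p = 0.160), and in untreated kidneys FXYD2 fell by 1.12 ± 0.30 (adjusted p = 0.0269).

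The calls of FXYD2 rested on few arrays. In CO 24 h kidneys against naive kidneys the call was lost without naive 1 (adjusted p = 0.146), naive 2 (0.164), the CO kidney of donor 6 (0.0610) or that of donor 7 (0.0629). In untreated 24 h kidneys against naive kidneys it was lost without naive 1 (adjusted p = 0.0667) or naive 2 (0.0817). Between the times in untreated kidneys it was lost without the kidney of donor 1, 2, 4, 5, 6 or 7, with adjusted p between 0.0505 and 0.0979, and when only the compared groups were fitted (0.0528). The batch block gave FXYD2 changes of -1.22 (adjusted p = 0.597) and -1.65 (adjusted p = 0.189) in CO and untreated 24 h kidneys against naive kidneys, and -1.21 (adjusted p = 0.596) between the times in untreated kidneys. Within batch 2, the untreated 24 h kidney of donor 5 differed by -1.59 from naive 2 and by -1.02 from the untreated 4 h kidney of donor 2.

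PTGER3, the prostaglandin E2 receptor, passed in 1 of the comparisons made, between the times in CO kidneys. Its levels were 4.87, 4.73, 5.00 and 5.29 in CO 24 h kidneys of donors 5 to 8, against 5.93, 6.48, 6.09 and 5.41 in CO 4 h kidneys of donors 1 to 4. The groups did not overlap, although CO donor 8 at 24 h and CO donor 4 at 4 h lay close together. PTGER3 fell between 4 h and 24 h in CO kidneys, with a change of -1.005 ± 0.26 (adjusted p = 0.0148), which held when any 1 array was left out. Under the batch block the change was -0.54 (adjusted p = 0.800), and no batch held both groups. Untreated kidneys had levels of 5.50, 5.56, 4.51 and 5.41 at 24 h and 6.00, 5.29, 5.91 and 5.39 at 4 h, and the difference did not pass (-0.40 ± 0.26, adjusted p = 0.395). The naive levels were 5.86 and 5.31, and no transplanted group differed from them past the threshold, with changes between -0.61 and 0.39. Whether the change with time differed between CO and untreated kidneys is the difference of the CO effects at the 2 times, which was -0.60 ± 0.37 (adjusted p = 0.996).

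HSD11B2, the cortisol-inactivating enzyme, was lower at 24 h. Its levels were 7.90, 7.98, 7.69 and 7.85 in CO 24 h kidneys of donors 5 to 8 and 8.83, 7.23, 7.62 and 7.26 in untreated 24 h kidneys, against 9.03 and 9.70 in naive kidneys. All 8 were below both naive kidneys, and the untreated kidney of donor 5 was nearest. Relative to naive kidneys, HSD11B2 fell by 1.51 ± 0.36 in CO 24 h kidneys (adjusted p = 0.0121) and fell by 1.63 ± 0.36 in untreated 24 h kidneys (adjusted p = 0.00631). At 4 h the levels were 8.68, 8.32, 8.28 and 8.69 in CO kidneys of donors 1 to 4 and 8.97, 8.31, 8.07 and 8.58 in untreated kidneys. All 8 were again below both naive kidneys, but the changes of -0.88 ± 0.36 in CO (adjusted p = 0.112) and -0.88 ± 0.36 in untreated kidneys (adjusted p = 0.168) did not pass. The CO 4 h comparison passed without the untreated 24 h kidney of donor 5 (adjusted p = 0.0303) and with batch as a fixed block (-0.88, adjusted p = 0.0442). With array weights both 4 h comparisons passed, at an adjusted p of 0.0465 for CO and 0.0483 for untreated kidneys.

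Between the times, HSD11B2 differed by -0.64 ± 0.29 in CO kidneys (adjusted p = 0.144) and by -0.75 ± 0.29 in untreated kidneys (adjusted p = 0.123). The untreated kidney of donor 5, the only 24 h kidney in batch 2, decided both: without it they passed, at -0.64 in CO (adjusted p = 0.0360) and -1.11 in untreated kidneys (adjusted p = 0.00618). The CO comparison also passed when only the compared groups were fitted (adjusted p = 0.0187). The calls against naive kidneys were lost without naive 2, with a change of -1.18 in CO 24 h (adjusted p = 0.161) and -1.30 in untreated 24 h kidneys (adjusted p = 0.110), and in CO 24 h kidneys also without naive 1 (adjusted p = 0.0507). The batch block moved the changes of HSD11B2 further than those of EGF or FXYD2. With batch as a fixed block, HSD11B2 changed by -0.09 in CO 24 h kidneys (adjusted p = 0.969) and by -0.53 in untreated 24 h kidneys (adjusted p = 0.576) against naive kidneys. The block turned the differences between the times to 0.78 in CO kidneys (adjusted p = 0.620) and 0.35 in untreated kidneys (adjusted p = 0.937). Within batch 2 the untreated 24 h kidney of donor 5 differed by -0.87 from naive 2 and by 0.52 from the untreated 4 h kidney of donor 2.

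SCNN1A, the sodium channel subunit, had its highest mean in CO 4 h kidneys. Its levels were 2.88, 3.11, 2.98 and 3.06 in CO 24 h kidneys of donors 5 to 8, against 3.87, 4.69, 4.01 and 4.33 in CO 4 h kidneys of donors 1 to 4. The groups did not overlap, and SCNN1A fell between 4 h and 24 h in CO kidneys with a change of -1.21 ± 0.23 (adjusted p = 0.00217), a call kept when any 1 array was left out. Untreated kidneys had levels of 3.54, 2.87, 2.89 and 3.07 at 24 h and 3.80, 3.32, 3.94 and 3.56 at 4 h, a difference of -0.56 ± 0.23 that did not pass (adjusted p = 0.136). The CO effect at 24 h minus that at 4 h was -0.65 ± 0.32 (adjusted p = 0.996). With batch as a fixed block the change in CO kidneys was -0.51 (adjusted p = 0.757), and in untreated kidneys it was 0.03 (adjusted p = 1.00).

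Against naive kidneys, whose SCNN1A levels of 4.49 and 3.46 lay far apart, the calls at 24 h depended on single arrays. SCNN1A fell by 0.96 ± 0.28 in CO 24 h kidneys (adjusted p = 0.0328), all of which were below both naive kidneys, and fell by 0.88 ± 0.28 in untreated 24 h kidneys (adjusted p = 0.0430), of which donor 5 exceeded naive 2. Without naive 1 the changes were -0.45 (adjusted p = 0.526) and -0.36 (adjusted p = 0.609). The CO call was also lost without the CO 24 h kidney of donor 5, 6 or 7 (adjusted p between 0.0505 and 0.0683). The untreated call was lost without the untreated 24 h kidney of donor 6, 7 or 8, any CO 24 h kidney or the CO 4 h kidney of donor 3 (adjusted p between 0.0503 and 0.103). With only the compared groups fitted, the adjusted p was 0.0579 for CO and 0.0980 for untreated kidneys. With batch as a fixed block the changes were -0.31 (adjusted p = 0.877) and -0.34 (adjusted p = 0.786). Within batch 2 the untreated 24 h kidney of donor 5 was 0.08 above naive 2. At 4 h the differences were 0.25 ± 0.28 in CO (adjusted p = 0.624) and -0.32 ± 0.28 in untreated kidneys (adjusted p = 0.578).

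Groups that did not overlap were common on the array, so separation adds little by itself. Among the 6 genes, 5 were lower without overlap in CO 24 h kidneys against naive kidneys, where 39.1% of all probe sets did not overlap in either direction, and 3 in untreated 24 h kidneys, where 39.0% did not. At 4 h there were 4 such genes in CO kidneys and 3 in untreated kidneys, against 37.6% and 27.4% of probe sets. Between the times, 5 of the 6 did not overlap in CO kidneys, where 20.9% of probe sets did not, and only EGF did not in untreated kidneys, where the share was 13.2%. Between CO and untreated kidneys 0 of the 6 genes separated at either time, against 1.82% of probe sets at 4 h and 1.18% at 24 h.

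The effect of CO was asked by comparing CO with untreated kidneys at each time, shown beside the differences within donors. The limma fit did not pair kidneys by donor, so its errors, intervals and p-values for CO against untreated kidneys are unpaired. With donor as a fixed term, none of the 6 genes passed at either time. In limma, 0 of the 6 genes passed at 4 h or at 24 h, and 1 at 4 h and 0 at 24 h had an unadjusted p under 0.05. Over the whole array 0.0% of probe sets passed at either time, with 787 at 4 h and 281 at 24 h below 0.05 unadjusted. The gene at 4 h was SCNN1A, with CO minus untreated differences of 0.07, 1.36, 0.07 and 0.77 in donors 1 to 4. It was higher with CO in 4 of 4 donors, by 0.57 ± 0.23 (95% interval 0.09 to 1.04, adjusted p = 0.999), and 2 of these differences were close to 0. Within batches the difference was 0.30 in batch 1 (3 donors) and 1.36 in batch 2 (1 donor). At 24 h SCNN1A differed by -0.66, 0.24, 0.09 and -0.01 in donors 5 to 8, on average by -0.08 (95% interval -0.56 to 0.40).

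The CO minus untreated differences spread most between donors for KCNJ1 at 4 h (SD 1.32) and for EGF at 24 h (SD 1.39). EGF with CO minus untreated was -1.003, -0.71, -0.09 and 0.13 in donors 1 to 4 at 4 h and 0.98, 0.39, -1.35 and 1.96 in donors 5 to 8 at 24 h. The means of -0.42 (95% interval -1.46 to 0.62) and 0.50 (95% interval -0.54 to 1.53) leave a decrease of over 1 at 4 h and an increase of over 1 at 24 h within the precision. KCNJ1 differed by -1.63, 1.57, 0.43 and 0.08 at 4 h, so that the donor 1 and donor 2 pairs went opposite ways, and by 0.44, 0.18, -0.35 and 0.45 at 24 h. FXYD2 was lower with CO in donor 1 by a difference of -1.26 and between 0.06 and 0.22 higher in the other 3 donors at 4 h, and it was between 0.01 and 0.45 higher in 4 of 4 donors at 24 h (mean 0.27, 95% interval -0.37 to 0.91). In every gene but SCNN1A, the most negative difference at 4 h was that of donor 1, whose untreated array stood nearest to naive. For HSD11B2 it was -0.28 and for PTGER3 only -0.07.

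PTGER3 and HSD11B2 did not pass at either time. PTGER3 differed by 0.33 at 4 h (95% interval -0.22 to 0.89), with 1.19 in donor 2 the highest, and by -0.27 at 24 h (95% interval -0.82 to 0.28). HSD11B2 differed by 0.01 at 4 h (95% interval -0.60 to 0.62) and by 0.12 at 24 h (95% interval -0.50 to 0.73), from -0.93 in donor 5 to 0.75 in donor 6. Within batch 3 (3 kidneys of each group), CO minus untreated at 24 h was 0.67 for EGF, 0.39 for KCNJ1, 0.43 for FXYD2, -0.10 for PTGER3, 0.44 for HSD11B2 and 0.03 for SCNN1A. Over both times and for the difference of the CO effects between the times, 0 of the 6 passed in limma and none reached an unadjusted p of 0.05, where 0.0% of probe sets passed in either and 378 and 612 were below 0.05 unadjusted.

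**Figure D3:**
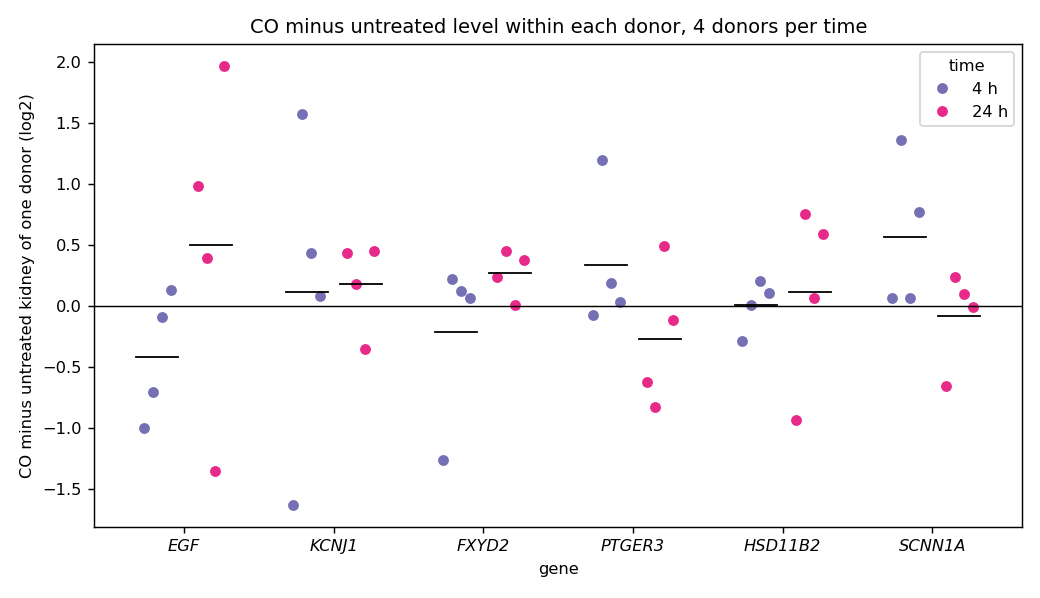
CO minus untreated log2 level within each donor (points) for the 6 genes, at 4 h (purple, donors 1 to 4) and 24 h (pink, donors 5 to 8), with the mean of the 4 donors as a line. Points lie on both sides of 0 except for SCNN1A at 4 h and FXYD2 at 24 h, where all 4 are above it.

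Other genes of these segments were described from lists of thick ascending limb, distal convoluted and connecting tubule, and principal cell genes, which hold 70 distinct genes. Of these, 34 were measured by a probe set with a single symbol, 28 of them besides the 6 genes, and UMOD, SLC12A1, SLC12A3 and AQP2 were not analysed here. Against naive kidneys, 2 of the 28 were higher and 7 lower in CO 24 h kidneys, and 1 was higher and 7 lower in untreated 24 h kidneys. At 4 h, 2 were higher and 1 lower in CO kidneys and 0 were higher and 2 lower in untreated kidneys. No alternative was run for these genes, and batch was not adjusted for. Their median change at 24 h was -0.40 in CO and -0.36 in untreated kidneys, smaller in size than that of the 6 genes. Between CO and untreated kidneys 0 of the 28 passed in limma at 4 h or at 24 h, and at both times 0 were below an unadjusted p of 0.05.

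**Figure D4:**
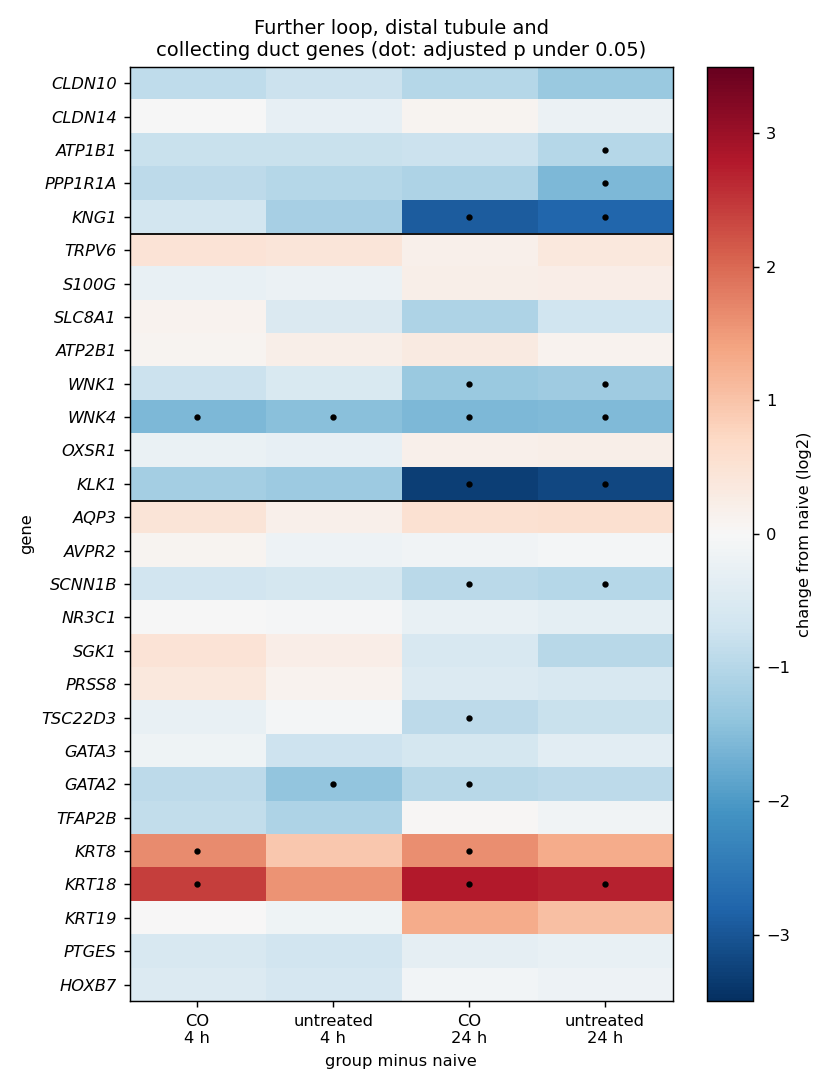
Log2 change from naive kidneys (colour) of 28 further genes of the thick ascending limb (top block), the distal convoluted and connecting tubule (middle block) and principal cells (bottom block) in CO and untreated kidneys at 4 h and 24 h; dots mark an adjusted p under 0.05. KLK1 and KNG1 are darkest blue at 24 h, from -3.30 to -2.78, and KRT18 is darkest red, at 2.78 in CO and 2.70 in untreated kidneys.

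In the thick ascending limb list, KNG1, the kininogen gene, fell against naive kidneys, with changes of -2.91 in CO 24 h and -2.78 in untreated 24 h kidneys. The inhibitor of protein phosphatase PPP1R1A (-1.56) and the pump's beta subunit ATP1B1 (-0.997) fell in untreated 24 h kidneys. This makes 1 of 5 further genes of this list lower in CO and 3 of 5 in untreated 24 h kidneys. In each of these 2 groups, 4 of the 5 had an unadjusted p under 0.05 in limma against naive kidneys. Of all probe sets, 25.9% had such a p in CO 24 h and 28.1% in untreated 24 h kidneys. Between CO and untreated 24 h kidneys 0 of the 5 passed. In the distal tubule list, KLK1, tissue kallikrein of the connecting tubule, fell too, with changes of -3.30 in CO 24 h and -3.18 in untreated 24 h kidneys. WNK4, a kinase that regulates salt transport in the distal convoluted tubule, fell in all 4 groups, with changes of -1.58 in CO 4 h, -1.47 in untreated 4 h, -1.56 in CO 24 h and -1.54 in untreated 24 h kidneys. With WNK1, 3 of 8 further genes of that list were lower in each 24 h group.

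In the principal cell list, 2 of 15 further genes were higher and 3 lower in CO 24 h kidneys against naive kidneys. The shares of all probe sets were 5.75% and 5.93%. In untreated 24 h kidneys 1 of the 15 was higher and 1 lower, against 6.79% and 7.77% of all probe sets. SCNN1B, the beta subunit of the sodium channel to which SCNN1A belongs, fell with changes of -0.96 in CO 24 h and -1.01 in untreated 24 h kidneys against naive kidneys. KRT18, an epithelial keratin that is not particular to principal cells, rose by 2.78 in CO 24 h and 2.70 in untreated 24 h kidneys, and KRT8 rose by 1.62 in CO 24 h kidneys. The aldosterone- and glucocorticoid-induced genes SGK1 and TSC22D3 fell between the times, with changes of -1.05 in CO and -1.23 in untreated kidneys for SGK1 and of -0.67 and -0.73 for TSC22D3. Between the times, 0 of the 15 were higher and 2 lower in untreated kidneys, against 5.15% and 4.57% of all probe sets. In CO kidneys 1 was higher and 2 lower, against 10.2% and 7.44%. The median change of the 15 was 0.36 in untreated and -0.05 in CO kidneys, so SGK1 and TSC22D3 do not stand for the list. NR3C1, the glucocorticoid receptor, did not pass against naive kidneys, with changes of -0.27 in CO 24 h and -0.34 in untreated 24 h kidneys.

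Among the relatives of FXYD2, FXYD5 rose by 1.77 in CO 24 h and 2.29 in untreated 24 h kidneys, and FXYD7 fell, at -2.04 and -2.18, all against naive kidneys. The pump's beta subunit ATP1B3 rose by 0.85 and 0.83, and of 6 further genes of this list 2 were higher in each 24 h group, with 1 lower in CO and 2 lower in untreated kidneys. In the list of EGF relatives and receptors, of which 6 besides EGF were measured, HBEGF, another ligand of the EGF receptor, rose by 1.80 in CO 4 h kidneys against naive kidneys and changed by -1.29 from 4 h to 24 h in CO kidneys. In the prostaglandin list, the receptor gene PTGFR fell between the times, with changes of -1.89 in CO and -1.48 in untreated kidneys, and PTGES3, a co-chaperone with prostaglandin E synthase activity, rose by 2.24 in CO 4 h kidneys against naive kidneys. Of 3 measured transcription regulators of these segments, LHX1 fell, with changes of -1.73 in CO 4 h, -1.50 in untreated 4 h and -1.20 in untreated 24 h kidneys against naive kidneys, while ELF3, an epithelial transcription factor, rose by 2.77 in CO 4 h kidneys against naive kidneys and changed by -1.59 between the times in CO kidneys. HBEGF, PTGES3 and ELF3 did not pass between CO and untreated kidneys at 4 h, where 0.0% of probe sets passed in limma. In each 4 h group against naive kidneys, 2 of 6 further EGF list genes had an unadjusted p under 0.05 in limma. The same held for 2 of 5 further prostaglandin list genes. Over the whole array 28.4% of probe sets had such a p in CO 4 h and 20.7% in untreated 4 h kidneys, so these counts add little.

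Markers of the proximal tubule were lower in the groups where EGF and FXYD2 were lower. The mean log2 level of 11 proximal tubule markers ranged from 6.84 to 8.11 in CO 24 h and from 5.92 to 7.31 in untreated 24 h kidneys. It was 8.04 to 9.44 in CO 4 h and 8.94 to 9.69 in untreated 4 h kidneys, and 9.95 to 9.98 in naive kidneys. Of the 11, 9 fell in CO 24 h and 10 in untreated 24 h kidneys against naive kidneys, and none was below background in any group. The CO 24 h kidney of donor 8 had the highest level at 24 h of these markers, 8.11, and also of EGF, FXYD2 and KCNJ1. The mean of 13 leukocyte markers was 2.84 to 4.68 in CO 24 h, 3.21 to 4.61 in untreated 24 h, 2.88 to 3.11 in CO 4 h and 3.14 to 4.39 in untreated 4 h kidneys, against 2.20 to 2.82 in naive kidneys, where 4 of the 13 were below background. Of the 13, 2 rose in CO 24 h and 4 in untreated 24 h kidneys against naive kidneys. Intercalated cell and glomerular markers, as KCNJ1, had their lowest group means at 4 h. At 24 h these markers remained below the naive range, whereas KCNJ1 overlapped the naive levels. The mean of 5 intercalated cell markers was 5.57 to 6.21 in CO 24 h and 5.61 to 6.32 in untreated 24 h kidneys, 5.49 to 5.88 in CO 4 h and 4.90 to 6.37 in untreated 4 h kidneys, against 6.75 to 6.96 in naive kidneys. ATP6V1C2, a member of that list, is also among the genes most like KCNJ1. Of 9 glomerular markers 2 were measured, WT1 and TCF21, and their mean was 5.02 to 6.08 in CO 24 h, 5.18 to 5.75 in untreated 24 h, 3.44 to 5.31 in CO 4 h and 4.31 to 5.73 in untreated 4 h kidneys, against 6.29 to 6.46 in naive kidneys. For the lists of later segments, which include members of the 6 genes, group means are given. The thick ascending limb list was at 6.78 in CO 24 h and 6.57 in untreated 24 h kidneys, against 8.06 in naive kidneys. The distal tubule list was at 4.44 and 4.45, against 5.55. The principal cell list moved less, at 6.56 and 6.50, against 6.66. The part of these cell types in the results was not tested.

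The genes with the most similar pattern were chosen by Pearson's r of the log2 level over the 18 arrays, which share donors and fall into groups by time, so r is given as a measure of likeness alone. EGF was most like DPYS (0.981), MIOX (0.980) and UPB1 (0.978), where MIOX is an enzyme of inositol breakdown in the proximal tubule and DPYS and UPB1 break down pyrimidines. DPYS and MIOX are also members of the proximal tubule marker list, so their likeness to EGF is not separate from the marker levels above. KCNJ1 was most like CXXC5 (0.924), ZFYVE16 (0.921) and ATP6V1C2 (0.911), a subunit of the proton pump. FXYD2 was most like COX7A1 (0.952), HSD17B10 (0.950) and NUDT14 (0.942), of which COX7A1 and HSD17B10 encode mitochondrial proteins. HSD11B2 was most like LOC100513542 (0.879), NDUFV1 (0.868) and POMT1 (0.854). PTGER3 (MGLL 0.853, SCIN 0.826, MT-2B 0.797) and SCNN1A (SCIN 0.879, MAP1LC3A 0.861, LOC100525350 0.860) shared SCIN, an actin-severing protein.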

How the data were processed

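Per the labels' protocols, biotin-labelled total RNA was hybridised by the Affymetrix procedure, and per the submitters' processing notes the deposited values are log2 levels from RMA, without version or settings. The background was the 95th percentile of 17 tag control probe sets. The table holds 24123 probe sets, of which 124 are controls and 23999 entered the fit, unfiltered. Platform annotation named the genes; 10069 probe sets had 1 symbol, 198 several and 13732 none. The comparisons used limma 3.58.1 (R 4.3.3), fitting 5 group means to all 18 arrays by lmFit and eBayes with no block, two-sided. With arrays, which hold no counts, precision is limited by their number.

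The 6 genes and all lists were chosen with earlier results of these data known. Of the lists, up to 4 genes that passed with the largest change were named per comparison, shortened here, and NR3C1 was added after its values were seen. A gene with several probe sets was represented by the brightest. Donor numbers pair the kidneys: after group means were removed, partner arrays correlated between -0.20 and 0.57 in the 8 donors. Numbers in the names of the naive arrays recur in those of donor 4, so animals may be shared, which was not modelled. Nothing says that RNA was extracted separately, so p-values measure the spread between these arrays.

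The alternatives changed the variance model, the probe set filter, the normalisation, the weights of arrays, the block (batch or donor, with statmod 1.5.0) or the groups fitted, or left out 1 array. Within-batch values were added after the data were seen. The fit was tested on simulated data. Figures were drawn with matplotlib 3.10.9.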

Additional observations from a re-analysis of the deposited data

Results flagged for a closer look

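PTGER3 in the untreated 24 h kidney of donor 7, at 4.51, lay far below the other 3 untreated 24 h kidneys, which were between 5.41 and 5.56. It was the only sample so far from its group among 24 sets of 4 arrays (6 genes in 4 groups), and chance marks about 1 in 20 such sets. EGF in the same kidney was 5.76, the highest of its group.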

How the results depend on the processing

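No comparison of CO with untreated kidneys gave a call among the 6 genes under any alternative run. The number of the 6 genes called changed as follows. With batch as a fixed block it was 0 in CO 24 h and 0 in untreated 24 h kidneys against naive kidneys, 0 between the times in CO and 0 in untreated kidneys, and 1 in CO 4 h kidneys against naive kidneys. The CO 4 h count was also 1 with a variance trend, a filter on dim probe sets, median centring, donor as a random replicate block or only the compared groups, and 3 with array weights, which gave 2 in untreated 4 h kidneys. Between the times in untreated kidneys it was 3 instead of 2 with a variance trend, the filter, quantile normalisation or array weights, and 1 with only the compared groups. That last setting also gave 5 instead of 4 between the times in CO kidneys and 3 instead of 4 in each 24 h group against naive kidneys. The donor block changed no call other than that of KCNJ1 in CO 4 h kidneys. Without single arrays the counts ran from 0 to 1 in CO 4 h, 0 to 1 in untreated 4 h, 1 to 4 in CO 24 h and 2 to 4 in untreated 24 h kidneys against naive kidneys, and between the times from 3 to 5 in CO and from 1 to 3 in untreated kidneys.

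Directions turned only for differences without a call. The batch block gave 0.32 for KCNJ1 in CO 24 h kidneys against naive kidneys, 0.35 for HSD11B2 and 0.026 for SCNN1A between the times in untreated kidneys, 0.78 for HSD11B2 between the times in CO kidneys and 0.030 for SCNN1A with CO at 24 h. Array weights gave -0.015 for EGF with CO over both times and -0.33 for KCNJ1 as the difference of the CO effects. Leaving out single arrays gave ranges of -0.22 to 0.34 for PTGER3 and -0.83 to 0.20 for SCNN1A in untreated 4 h, -0.27 to 0.77 for SCNN1A in CO 4 h and -0.43 to 0.00038 for KCNJ1 in CO 24 h kidneys against naive kidneys. CO minus untreated at 4 h ran from -0.25 to 0.71 for KCNJ1 and -0.13 to 0.17 for HSD11B2. At 24 h it ran from -0.087 to 0.94 for EGF, -0.044 to 0.39 for KCNJ1, -0.052 to 0.48 for HSD11B2 and -0.16 to 0.065 for SCNN1A. Over both times it ran from -0.25 to 0.26 for EGF, -0.037 to 0.44 for KCNJ1, -0.10 to 0.13 for FXYD2, -0.090 to 0.13 for PTGER3 and -0.021 to 0.25 for HSD11B2. The difference of the CO effects ran from -0.53 to 0.43 for KCNJ1 and -0.061 to 0.47 for HSD11B2. The causes were not tested. Over the whole array, untreated 4 h kidneys against naive kidneys had 361 calls, 4760 with array weights, 105 with the batch block, 0 with only the compared groups and 2 to 3347 without single arrays. The other comparisons with naive kidneys had 3254 (CO 4 h), 2804 (CO 24 h) and 3494 (untreated 24 h) calls, with 7037, 6224 and 7744 under weights, 2862, 0 and 159 under the batch block and at least 1, 459 and 903 without single arrays. Between the times there were 4226 calls in CO and 2332 in untreated kidneys, with 6934 and 4978 under weights, 0 in both under the batch block, at least 2720 and 1320 without single arrays, and 1462 in untreated kidneys with only the compared groups. The 2 naive arrays limit every comparison with them.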
